A study of Mus musculus with 18 samples.

Results

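The transcripts described here gave a lower array signal at 30 min than at 10 min of macrophage stimulation, with and without IL-10. They are 98 of 45101 probe sets, a probe set being the group of short probes on an array that reads 1 transcript or transcript region. The members were chosen from the measured values. Among 14547 non-control probe sets with a mean log2(signal + 16) of at least 8, the difference between 30 and 10 min was taken in each of 6 pairs of arrays, 1 pair per treatment and experiment. Each probe set was scored by the highest of its 6 differences, the 100 lowest scores were kept, and the 1 probe set of Neat1 and the 1 of Malat1 among them were left out. Every member was therefore lower at 30 min in 6 of 6 pairs by choice, and the size of that fall is given as a description with no test. Of the members 74 carried 1 gene symbol, covering 73 genes, and 24 carried none. All 98 passed the filter on dim signals used for the tests.

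The cells were macrophages grown for 7 days with CSF-1 from L cell conditioned medium, from the bone marrow of mice of genotype IL-10-/-. Cultures were over 95% macrophages per the labels, and all groups share the Il10 deficiency. One treatment was LPS (100 ng/ml), the bacterial product sensed by a Toll-like receptor. The other added IL-10 (10 ng/ml) to the same LPS dose, and neither medium held CSF-1. RNA was taken at 10, 20 and 30 min in 3 separate experiments, called experiments 1, 2 and 3, which gave 6 groups of 3 Affymetrix arrays. Neither unstimulated nor wild-type cells were analysed here.

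A transcript's level falls when synthesis slows, when decay speeds up, or when a nuclear precursor is processed into another form. Within 30 min such a fall is large for short-lived RNAs, since a stable mRNA is diluted or degraded only slowly. Short-lived RNAs include many encoding transcription regulators and signalling proteins, introns, and noncoding hosts of small nucleolar RNAs such as Gas5. Arrays compare relative amounts, so in these cultures fewer cells carrying a transcript and less of it per cell cannot be told apart.

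The 18 arrays were scaled to 1 trimmed mean signal. At 20 min, LPS arrays 2 and 3 had raised dim signals, with lower quartiles of 38.7 and 34.1 against 21.9 to 31.1 on the others. Macrophage markers were strong on all arrays, with 8 genes measured and a summed signal from 106046 to 189889. Granulocyte markers summed to between 4898 and 12441, and neither of the B lymphocyte markers with a probe set passed the filter. The 1 probe set of Il10, the disrupted gene, read 602 to 3209 and was above the array median on 18 arrays. The position of its probes against the disrupted stretch was not used here, so this reading checks nothing.

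Txnip encodes a thioredoxin-binding arrestin-like protein that limits glucose uptake, and its mRNA is known to turn over fast. Rgs2 encodes a GTPase activator that shuts off Gq-coupled receptor signalling. Gas5, a noncoding RNA whose introns hold small nucleolar RNAs, is the 1 noncoding gene among the named members. Members without a symbol were not classified as coding or noncoding. These 3 genes are among the 24 member genes with only negative differences from 10 to 30 min on their other probe sets at the required level. Their promoters are shown as examples. They are RefSeq sequences of GRCm38.p6, from 250 bases before to 50 bases after an annotated start, printed 5′ to 3′ on the gene's strand. Capitals mark a match to any of 5 motifs.
Rgs2, minus strand, chr1:144004100-144004399: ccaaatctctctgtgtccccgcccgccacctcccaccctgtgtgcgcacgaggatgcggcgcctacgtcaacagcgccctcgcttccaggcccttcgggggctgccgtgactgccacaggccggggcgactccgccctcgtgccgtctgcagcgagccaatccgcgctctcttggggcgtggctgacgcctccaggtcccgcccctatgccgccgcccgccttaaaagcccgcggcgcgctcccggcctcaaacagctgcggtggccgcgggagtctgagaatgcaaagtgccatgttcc
Txnip, plus strand, chr3:96557707-96558006: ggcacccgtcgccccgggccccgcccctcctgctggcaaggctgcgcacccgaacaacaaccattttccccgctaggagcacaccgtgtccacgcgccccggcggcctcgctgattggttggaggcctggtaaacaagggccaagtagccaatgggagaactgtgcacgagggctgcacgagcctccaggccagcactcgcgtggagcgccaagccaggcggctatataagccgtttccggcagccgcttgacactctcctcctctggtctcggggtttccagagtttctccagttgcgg
Gas5, plus strand, chr1:161034916-161035215, the second of 2 annotated starts: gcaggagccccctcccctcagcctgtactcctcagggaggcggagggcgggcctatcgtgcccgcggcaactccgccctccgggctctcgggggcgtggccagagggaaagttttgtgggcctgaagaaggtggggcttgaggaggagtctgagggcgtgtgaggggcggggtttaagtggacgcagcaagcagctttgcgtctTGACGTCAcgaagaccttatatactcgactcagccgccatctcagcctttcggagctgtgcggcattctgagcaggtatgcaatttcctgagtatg

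The capitals in the Gas5 window are the cAMP response element TGACGTCA, and the Rgs2 and Txnip windows held none of the 5 motifs. Of the 2 Gas5 windows, the printed one was picked by how many of the 5 motifs it held, so its match was favoured. The motifs were searched on both strands of the 79 windows listed for 60 of the 73 member genes. The STAT motif TTCNNNGAA was in 8 of 79 windows (10.1%) against 8.30% of all 32851 windows in the table. The AP-1 motif TGANTCA was in 4 (5.06%, against 7.81%), TGACGTCA in 3 (3.80%, against 1.79%), the E-box CACGTG in 8 (10.1%, against 7.15%) and TATAAA in 5 (6.33%, against 13.6%). Against the 8739 windows of genes at the level required of members, the shares were 6.63%, 4.75%, 3.22%, 10.6% and 6.98% in the same order. The 8 windows with the STAT motif belong to 6 genes. The 3 with TGACGTCA belong to Gas5 and Ralgapa1, and the 5 with TATAAA to Col3a1, Igfbp4, Ing1 and Rbmx. Windows of 1 gene are not separate cases. These shares are descriptions of the letters in the windows.

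Across the 98 members the fall from 10 to 30 min, averaged over the 6 pairs, ran from -0.20 to -1.12 on the log2(signal + 16) scale. The median was -0.40, against -0.01 over the 14547 probe sets at that level. The median in single pairs was -0.30, -0.39 and -0.31 with LPS in experiments 1, 2 and 3, and -0.39, -0.43 and -0.37 with LPS plus IL-10. The falls were small beside the rises over the same time: the 100 probe sets with the most uniform rise had a median of 0.76 and reached 3.24. The score at which membership ended was -0.12. Just inside it were Akr1b10 (-0.118), Rab14 (-0.118) and Cbx5 (-0.117), and just outside were Arel1 (-0.116), an unnamed probe set (-0.115) and Tmem41b (-0.114).

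Of all probe sets at that level 4.43 percent were lower at 30 min in all 6 pairs (644 probe sets) and 3.95 percent were higher (574). All 6 arrays at 10 min lay above all 6 at 30 min for 15 of the 98 members, against 0.165 percent of probe sets at that level, a contrast the rule used. In limma, a linear model with moderated variances fitted to all probe sets, with the experiment as a block and averaged over both treatments, 11 members were called lower at 30 min, where 0.0848 percent of the 27110 tested probe sets were (23). These were Txnip, Clk1, Rbmx, Fam53b, Gas5, Rab14 and 5 unnamed probe sets. For LPS plus IL-10 alone the block gave 2 members, both unnamed, where 0.0295 percent were lower, and for LPS alone none, where 0.00369 percent were (Neat1). Without the block limma called none, where 0.00369 percent of probe sets were called lower, and 42 members had an unadjusted p under 0.05 (42.9%, against 2.72% of all tested). For LPS and for LPS plus IL-10 separately it called none either, where 0.0 percent were lower, while 0.0184, 0.0443 and 0.0553 percent were higher with LPS, with LPS plus IL-10 and on average (0.107, 0.195 and 0.35 percent with the block). The rule used this contrast, so nothing is read from these counts.

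**Figure D1:**
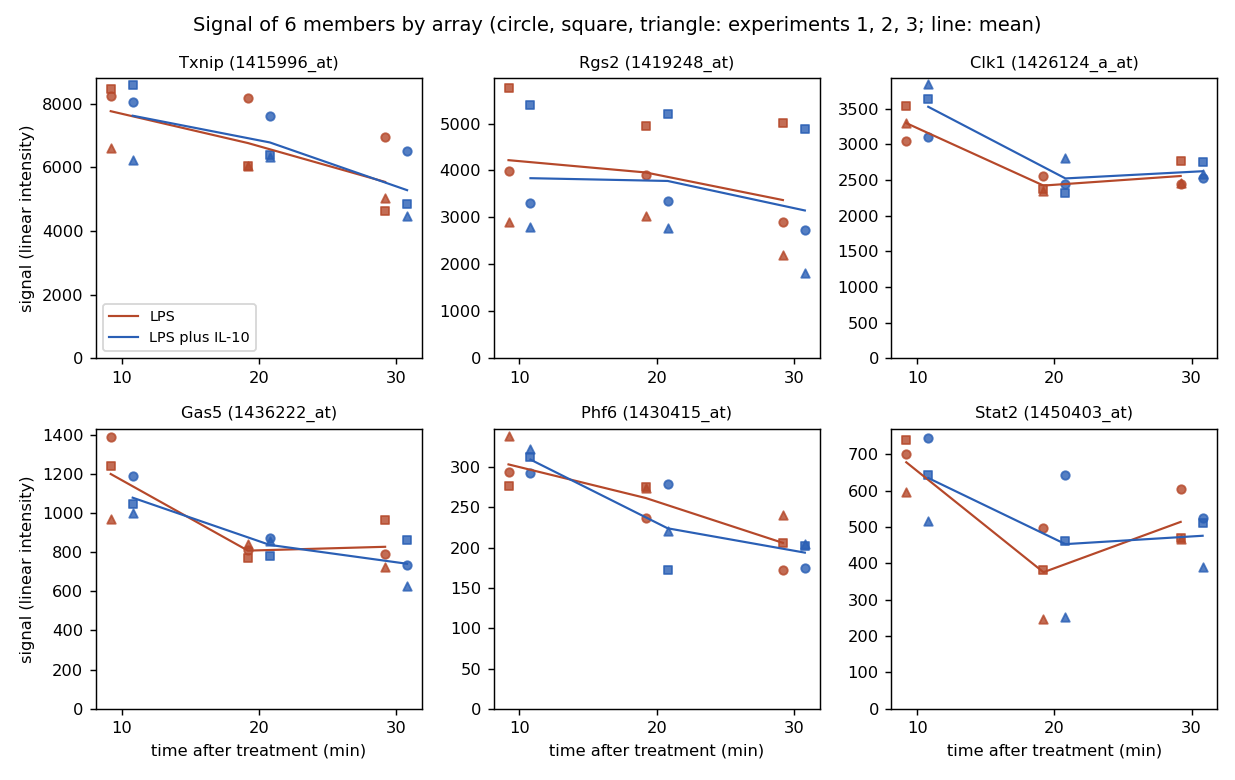
Signal (linear intensity, axis from 0) of 6 members against time in minutes, by treatment (colour) and experiment (symbol), with lines through group means of 3 arrays. Txnip and Rgs2 had most of their fall after 20 min, and Clk1 and Gas5 before it, and experiments keep their order for Rgs2 at every time.

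With LPS the signal of Txnip was 8252, 8454 and 6593 at 10 min in experiments 1, 2 and 3, then 8195, 6050 and 6047 at 20 min and 6946, 4634 and 5048 at 30 min. With LPS plus IL-10 it was 8052, 8591 and 6229, then 7630, 6398 and 6321, then 6519, 4845 and 4485. All 6 pairs were lower at 30 min, with differences of -0.87 to -0.25. The arrays of the 2 times overlapped, with experiment 1 highest at 30 min and experiment 3 lowest at 10 min. The other Txnip probe set, which was not a member, was lower in 6 of 6 pairs as well (mean -0.47).

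Rgs2 was the gene with 2 member probe sets. On one of them the LPS arrays read 3981, 5763 and 2912 at 10 min, 3907, 4940 and 3026 at 20 min and 2897, 5009 and 2202 at 30 min in experiments 1, 2 and 3. The LPS plus IL-10 arrays read 3316, 5398 and 2790, then 3339, 5207 and 2782, then 2741, 4888 and 1811. Experiment 2 was highest and experiment 3 lowest in every group, and this spread was wider than the fall. The other member probe set had a mean difference of -0.42 and another, no member, -0.38, each lower in 6 of 6 pairs. The 3 probe sets read 1 gene on the same arrays and are not separate evidence.

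Transcripts of RNA processing genes made up 11 members. Clk1 encodes a kinase of the SR splicing factors, and its own pre-mRNA is known to be kept in the nucleus with introns until it is spliced. With LPS, Clk1 read 3049, 3541 and 3302 at 10 min, 2553, 2369 and 2342 at 20 min and 2437, 2765 and 2463 at 30 min. With LPS plus IL-10 it read 3098, 3632 and 3847, then 2437, 2314 and 2812, then 2522, 2755 and 2589. All 6 arrays at 10 min were above all 12 later ones, and 20 and 30 min overlapped. The Gas5 LPS arrays read 1390, 1240 and 967 at 10 min, 812, 768 and 843 at 20 min and 792, 965 and 725 at 30 min. With IL-10 it read 1188, 1046 and 1001, then 874, 781 and 856, then 733, 864 and 625. The lowest Gas5 array at 10 min (967.4) was just above the highest at 30 min (965.0). Rbmx, an hnRNP protein that binds pre-mRNA, read 260 to 344 at 10 min and 120 to 225 at 30 min, with no overlap (mean -0.64). The remaining members of this group had mean differences of -0.54 to -0.21: Rsrp1 and Luc7l, both linked to splicing, the nuclear poly(A)-binding protein gene Pabpn1, the pseudouridine synthase gene Trub2, Tsr1 of small ribosomal subunit assembly, Rbms2, Nufip2 and Marf1.

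Members tied to transcription and chromatin numbered 18. Phf6, a PHD finger protein gene, had the lowest score of any named member: 277 to 339 over the 6 arrays at 10 min, 172 to 279 at 20 min and 172 to 241 at 30 min. Its 10 and 30 min arrays did not overlap on this probe set, and the mean difference was -0.58. On its other probe set at the level required of members it was 0.02. Kmt2a and Kmt2b, which encode histone H3 lysine 4 methyltransferases, had mean differences of -0.43 and -0.34, and Kdm5c, a demethylase gene for the same mark, -0.27. Kmt2a ran from 505.5 to 794.9 at 10 min and from 397.1 to 505.5 at 30 min, so the ranges met. Smad3, the signal transducer of TGF-beta receptors, differed by -0.34, the transcription factor genes Cux1, Cebpg, Zeb2 and Foxp1 by -0.50, -0.30, -0.38 and -0.24, and Tob2, an antiproliferative regulator linked to deadenylation, by -0.29. Stat2, the interferon signal transducer, differed by -0.40 and had its lowest mean at 20 min with LPS. Its LPS arrays read 700, 740 and 596 at 10 min, 497, 383 and 248 at 20 min and 604, 471 and 468 at 30 min.

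The 7 members of DNA repair, replication and division had mean differences of -0.54 to -0.22, the lowest being that of Polb, the base excision repair polymerase gene. Polb read 242 to 463 at 10 min and 160 to 287 at 30 min. The others were Wrn and Smug1 of DNA repair, Ticrr, Atad5 and Nsmce4a of replication and chromosome maintenance, and Tubgcp4 of the gamma-tubulin complex (-0.46). Of the 12 members of signalling and membrane traffic, the inositol phospholipid kinase gene Pip5k1a differed by -0.64, the endocytic adaptor gene Eps15 by -0.57, the small GTPase gene Rab14 by -0.67 and the ArfGAP family gene Agfg2 by -0.51. Of the 12 metabolic, glycan, lysosomal and mitochondrial members, Chchd7 had the lowest mean difference (-0.79). The histone gene H2bc21, counted with chromatin, differed by -0.33. The 14 named members outside these groups included Fam53b (-0.62), Tigd5 (-0.57), Psg28 (-0.57) and Evi2a (-0.49), the last a membrane protein gene within an intron of Nf1. These groups were made after the members were known, and none is claimed to be over-represented.

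The 24 members without a symbol had a median difference of -0.51. The lowest mean of any member (-1.12) was one of theirs, which read 700.2 to 1233 at 10 min and 275 to 704 at 30 min, and so was the lowest score (mean -0.68). Probe sets with no symbol made up 24.5% of members and 5.86% of probe sets at that level. Members were also dimmer than those probe sets, with a median over members of 8.84 against 9.84 in mean log2 signal. Among probe sets with a mean log2 signal from 8 to 9, 34.5% of the 55 members and 9.095% of all 4068 had no symbol. For named probe sets with an accession, 65.7% of members and 48.9% of all were designed on an expressed sequence tag, a single-pass cDNA read that can come from an unspliced RNA. In the same dimmer range these shares were 72.7% and 56.7%. Whether any member reads an intron was not tested, as no probe positions were used here.

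Other probe sets of the same genes often did not share the fall. At that level 48 of the 73 genes had 89 further probe sets. Their median difference was -0.04, against -0.01 over all probe sets at that level, and 62.9% were negative against 53.9%. Of the 89, 5 were lower in all 6 pairs (5.62%, background 4.43 percent), those of Cux1, Pabpn1, Rgs2, Trub2 and Txnip. Another 6 were higher in all 6 pairs (6.74%, background 3.95 percent), those of Ccny, Eps15, Foxp1, Pabpn1 and, with 2 of them, Zeb2. Member genes split evenly, with 24 having only negative values on their other probe sets and 24 having a positive one.

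Zeb2, a zinc finger repressor that maintains macrophage identity, was a case of opposite signs. Its member probe set read 911 to 1480 over the 6 arrays at 10 min and 666 to 969 at 30 min, with an average difference of -0.38. The other 3 differed by 0.15, 0.25 and 0.35, and 2 of them were higher in 6 of 6 pairs. Evi2a differed by -0.49 on its member and 0.10 on its other probe set, Rbmx by -0.64 and 0.11, Eps15 by -0.57 against 0.19 and -0.08, and Rsrp1 by -0.27 against 0.17 and -0.18. For Stat2 the other probe set was lower too (-0.54, in 5 of 6 pairs), and for Gas5 the other 3 differed by -0.12 to -0.16. Polb differed by 0.01 and 0.06 on its other probe sets at that level, and Chchd7 by 0.01. Those of Pip5k1a differed by -0.02, 0.19 and -0.11, and those of Rab14 by -0.13 to -0.04. In Zeb2, Evi2a, Rbmx, Eps15, Rsrp1, Phf6, Polb, Chchd7 and Pip5k1a, among others, probe sets of 1 gene thus went in opposite directions. These differences were not tested.

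**Figure D2:**
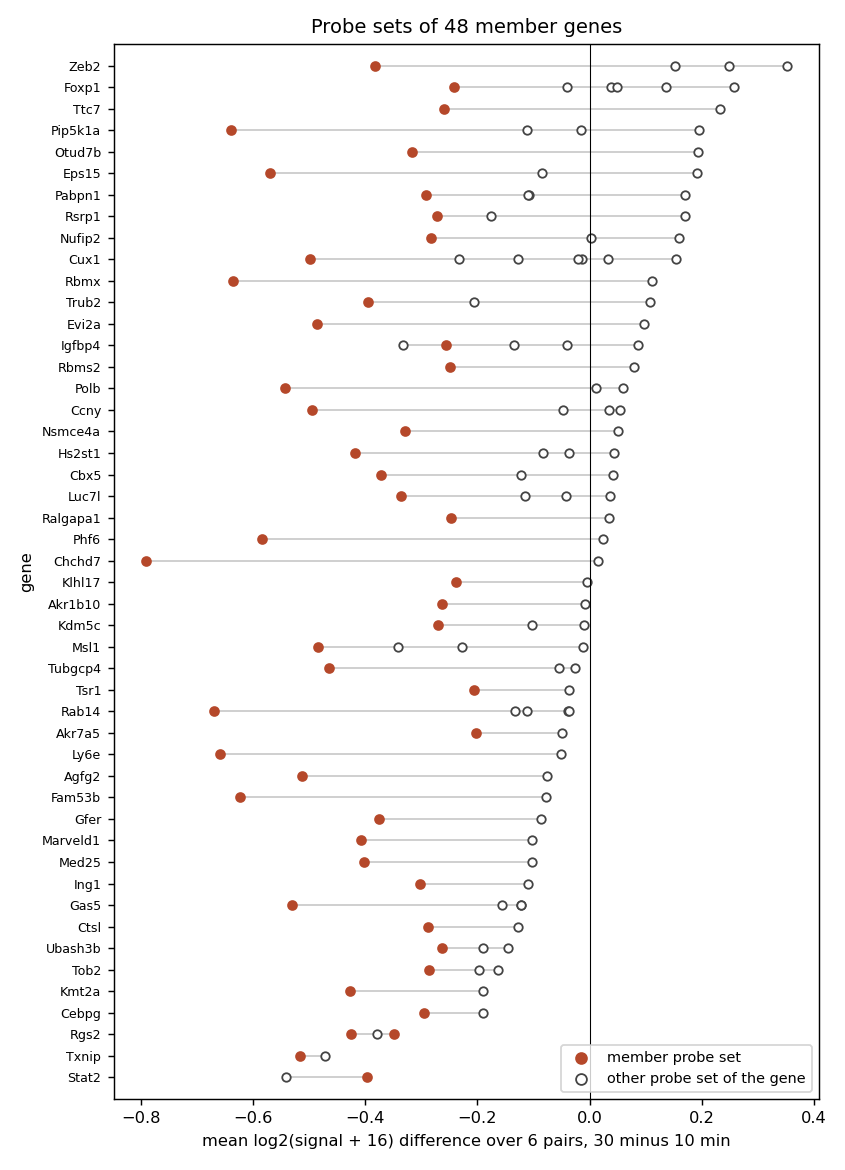
Mean difference over 6 pairs on the log2(signal + 16) scale, 30 minus 10 min, for each probe set of the 48 member genes that have another probe set at the required level. Filled points are members, chosen for low values, and open points are other probe sets of the gene. Open points of Zeb2 lie up to 0.35 and those of Stat2, Txnip and Rgs2 at -0.38 or below.

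Whether a fall recurs in arrays that did not choose it was read by applying the same rule without 1 experiment. Probe sets chosen on the other 2 experiments (98 or 99 each time) were lower at 30 min with LPS in 70.7%, 75.5% and 70.7% of cases in experiments 1, 2 and 3. With LPS plus IL-10 it was 66.7%, 68.4% and 76.8%. Over all probe sets at that level the shares were 47.9% to 54.3%. In both pairs of the experiment left out, 49 of 99, 58 of 98 and 55 of 99 were lower, where 31.9, 32.4 and 26.4 percent of all were. The median fall was 0.17, 0.24 and 0.17 there, against 0.50, 0.45 and 0.47 in the experiments that chose them. In each experiment the share was above the background, and the median was nearer 0 than in the choice. Of the probe sets chosen this way only 33, 44 and 37 were among the 98 members.

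The same reading across treatments gave similar values. Probe sets chosen on LPS plus IL-10 alone were lower in all 3 LPS pairs in 48 of 99 cases, against 15.0 percent of all. Those chosen on LPS alone were lower in all 3 LPS plus IL-10 pairs in 43 of 98 cases, against 18.2 percent. The median falls in the treatment left out were 0.22 and 0.19. The treatments share experiments and cells, so this is a weaker separation than leaving an experiment out.

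**Figure D3:**
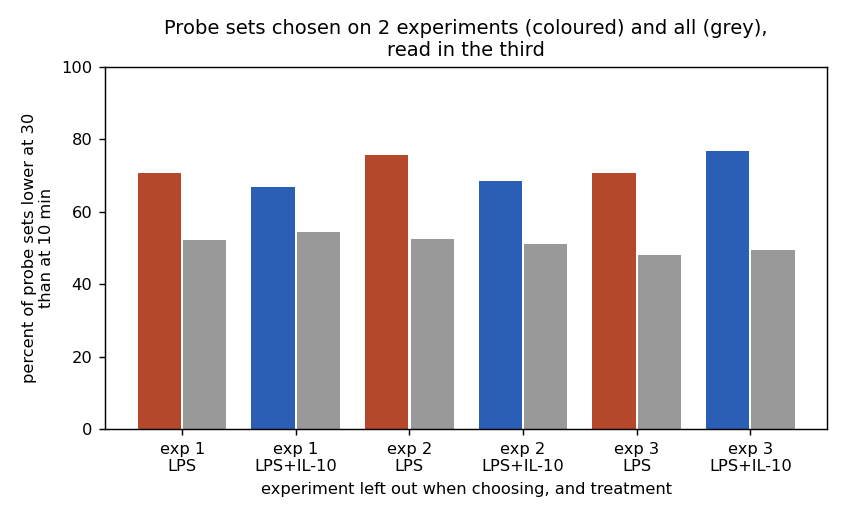
Percent of probe sets lower at 30 than at 10 min (axis from 0) in the experiment left out of the choice, by treatment. Coloured bars are the 98 or 99 probe sets chosen on the other 2 experiments, at 66.7% to 76.8%, and grey bars are all probe sets at that level, at 47.9% to 54.3%.

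At 20 min the members lay between, and experiment 3 differed from the other 2. The median signal over the 98 members was 510.4 to 547.4 on the arrays at 10 min. At 20 min it was 436 and 411 in experiment 1 (LPS, then LPS plus IL-10), 428 and 442 in experiment 2, and 543 and 568 in experiment 3. At 30 min it was 328 to 415 on all arrays. The members' median difference between 20 and 10 min was -0.13, -0.28 and 0.05 with LPS in experiments 1, 2 and 3, and -0.22, -0.33 and 0.00 with LPS plus IL-10. In experiment 3 the median therefore came down between 20 and 30 min, by 0.40 and 0.37. The same medians over all probe sets at that level were between -0.04 and 0.04. The LPS array of experiment 3 at 20 min is 1 of the 2 arrays with raised dim signals, and the LPS plus IL-10 array had a lower quartile of 31.1, the next highest. Without both of these LPS arrays the members' median was -0.17, against -0.16 with all arrays, and it was -0.30 without experiment 3 and -0.09 without experiment 2.

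**Figure D4:**
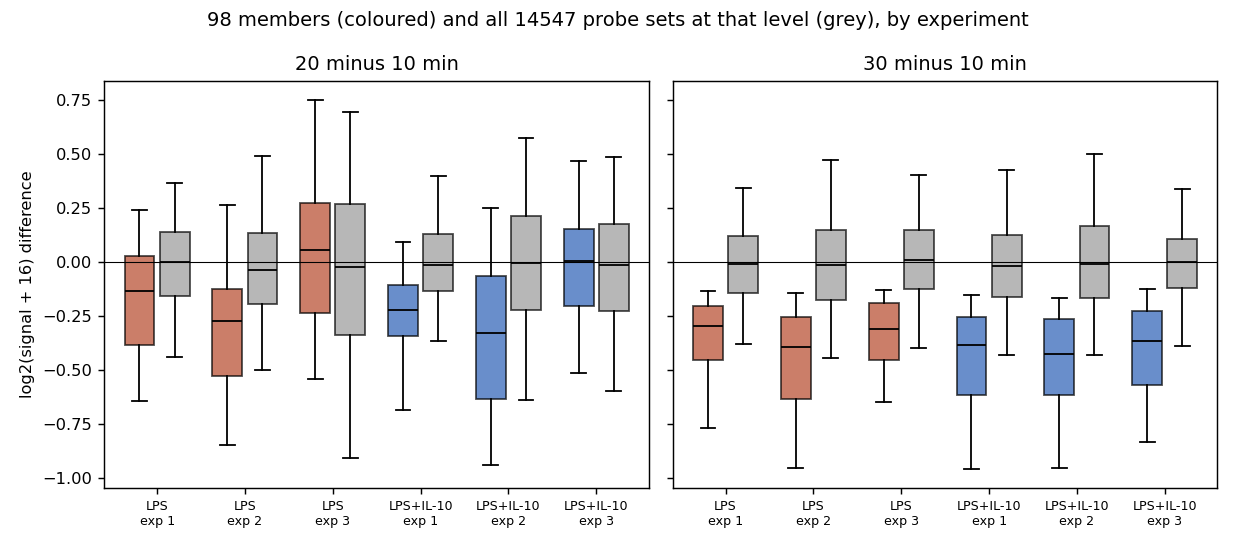
Box plots of log2(signal + 16) differences per experiment and treatment for the 98 members (colour) and the 14547 probe sets at their level (grey), for 20 and 30 against 10 min. Boxes span the quartiles with the median as a line, and whiskers the 5th to 95th percentile. Members of experiment 3 have medians of 0.05 and 0.00 at 20 min, and the 30 min panel is negative by choice.

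Single members differed in when the fall came. The lowest differences between 20 and 10 min, averaged over the 6 pairs, belonged to Stat2 (-0.71), Fam53b (-0.62), an unnamed probe set (-0.60), Tigd5 (-0.53) and Marf1 (-0.49). The highest belonged to Daglb (0.30), which makes 2-arachidonoylglycerol, and to Foxp1 (0.19), Tob2 (0.12), Rfng (0.12) and Parp11 (0.11). Daglb read 519 to 776 at 10 min, 668 to 993 at 20 min and 377 to 703 at 30 min. With LPS the mean fell from 10 to 20 min for 74 members (75.5%, against 55.6% of all probe sets at that level). From 20 to 30 min it fell for 84 (85.7%, against 46.2%). With LPS plus IL-10 the counts were 84 (85.7%, against 55.6%) and 94 (95.9%, against 49.8%). The rule chose members high at 10 min and low at 30 min, which favours a fall in both steps. The LPS values include the arrays with raised dim signals. These values share their 10 or 30 min arrays with the rule and get no test.

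IL-10 was compared with LPS alone at 20 min, the arrays that the members' differences did not use. No member was called by limma without the block or with it, where 0.0 percent of 27110 probe sets were called lower and 0.00738 percent higher (0.0184 percent with the block). At an unadjusted p under 0.05 there were 2 members without the block (2.04%, against 3.01% of all) and 8 with it (8.16%, against 7.81%). The median difference over the members was -0.04, against 0.02 over all probe sets at that level, and 58 of 98 were lower with IL-10 (59.2%, against 45.6% of all). IL-10 gave the lower value in 3 of 3 experiments for 18 members (18.4%, background 13.3 percent). The 95% interval of a single member reached 0.58 to either side of its difference (median over members, unadjusted, 0.36 with the block).

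Otud7b, a deubiquitinase that restrains noncanonical NF-kB signalling, had the highest IL-10 difference of the 98 members. At 20 min it read 357, 459 and 226 with LPS and 374, 646 and 584 with LPS plus IL-10 in experiments 1, 2 and 3. It was higher with IL-10 in 3 of 3, by 0.62 on average (SE 0.28, limma adjusted p = 1.00, blocked adjusted p = 0.599), which misses the threshold. Most of this gap came from experiments 2 and 3, where the readings without IL-10 are from the arrays with raised dim signals. In experiment 1 the readings were close, at 357 and 374. The part of the raised dim signals in the gap was not tested. Tigd5 was lower with IL-10 in 3 of 3 (-0.68, blocked adjusted p = 0.578), as were Rgs2 on 1 of its probe sets (-0.40, blocked adjusted p = 0.599) and Foxp1 (-0.36, blocked adjusted p = 0.619), and none of them passed. For Txnip the difference was 0.01, for Clk1 0.05 and for Gas5 0.05. At 10 and 30 min, whose arrays the rule used, the members' median IL-10 difference was -0.01 and -0.07. Over all probe sets at that level it was 0.009 and -0.001. By experiment the members' median at 30 min was -0.10, -0.04 and 0.03. For the change from 10 to 30 min, on arrays the rule used, the members' median IL-10 minus LPS difference was -0.05. Over all probe sets at that level it was -0.004, and this was not tested.

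Of 31 measured genes on a list of unstable transcription regulator mRNAs, 6 had a negative difference between 30 and 10 min averaged over treatments (median 0.23, against -0.03 over 12527 genes). With the block limma called 7 of them higher (Jun, Junb, Fos, Egr1, Ier2, Id1 and Btg2) and none lower, and without it none either way. Over the 12527 genes, 0.391% were called higher and 0.024% lower with the block, and 59.0% were negative. Junb, an AP-1 subunit, differed by 0.86 (blocked adjusted p = 0.00493). Tob2 was the list's gene with a member probe set. Of 27 TGF-beta and BMP pathway genes 13 were negative (median 0.00), with Id1 called higher and Smad3 a member. Of 14 measured surface receptors known to be lowered by LPS, 5 were negative (median 0.02) and none was called by either fit on its brightest probe set.

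The remaining lists also held few members. Of 17 noncoding RNA genes 11 were negative (median -0.19), with Neat1 called lower and Mir22hg higher with the block. Snhg3 and Snhg5, which host small nucleolar RNAs as Gas5 does, differed by -0.31 and -0.19 and did not pass. Of 34 chromatin regulator genes 20 were negative (median -0.01), of 28 mRNA decay genes 17 (median -0.03, Zfp36 called higher), of 28 G protein and GTPase regulator genes 17 (median -0.02, Rgs1 called higher) and of 11 housekeeping genes 9 (median -0.05, none called), all with the block. These shares stand against the 59.0% of all genes that were negative. Each gene is represented here by its brightest probe set. On other probe sets of listed genes, the block also called Id2 (2 probe sets), Klf6, Btg2 and Snhg1 higher, and Nrp1 and the Gas5 member lower. That Nrp1 probe set, of a semaphorin and VEGF co-receptor gene, read 846 to 1977 at 10 min and 454 to 1061 at 30 min (mean -0.84, limma blocked adjusted p = 0.000851, 0.672 without the block), while the brightest differed by 0.03.

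Some other quantities moved with time too. Col3a1, a collagen gene of stromal cells, is a member. It read 435 to 682 at 10 min and 282 to 468 at 30 min. All 4 stromal markers had negative differences (median -0.22) and none passed limma. Their summed signal ran from 1832 to 2345 with LPS at 10 min and from 1578 to 2175 at 30 min, and with IL-10 from 2196 to 2626 and from 1586 to 2425. Dcn, the dimmest of them, ran from 27.9 to 238.6 over all arrays. The 3' to 5' signal ratio of Actb had a median of 1.22 at 10 min and 1.15 at 30 min, and that of Gapdh 0.824 and 0.808. The lower quartile of signal had a median of 26.3 at 10 min and 23.1 at 30 min. In experiments 2 and 3 the lower quartile was lower at 30 than at 10 min with both treatments. Only in experiment 1 was it no lower, with either treatment. With LPS it was 22.1 at 10 min and 22.2 at 30 min there, and the members' median difference was -0.30. The part of the stromal markers, of the signal ratios and of the lower quartile in the members' fall was not tested.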

How the data were processed

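RNA was extracted with Trizol, per the labels' protocols. The authors deposited 1 linear signal intensity per probe set and array, and the submitters' processing notes name GCOS 1.4. Which signal algorithm made the values is not given here, and no detection calls were used, so dim signals may be background. Gene symbols came from GEO's annotation of the platform (34958 with 1 symbol, 932 with several and 9211 with none). Intensities were turned into log2(signal + 16), which understates changes of dim probe sets.

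Probe sets that reached the array median on at least 3 arrays were fitted in limma 3.58.1 (R 4.3.3; lmFit, eBayes with an intensity trend) over 18 arrays and 6 groups. P-values were adjusted by Benjamini-Hochberg over 27110 probe sets, with a threshold of 0.05, two-sided. The code was tested on simulated data. The labels make each replicate number a separate experiment. Deviations from group means correlated at 0.20 to 0.64 in 45 pairs of arrays with 1 number and at -0.47 to 0.07 in 90 others, so the number pairs arrays and blocked values stand beside results they change. No 2 arrays shared more than 104 values. The number of arrays limits the precision.

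Members, lists and tests were chosen with earlier results of these data known. Named with values are members with 1 symbol among the 25 lowest scores, genes with 2 member probe sets, members on a list, those at the border of the rule, those called at 20 min and the 5 lowest and highest differences between 20 and 10 min. Examples of each group of functions, genes whose other probe sets stand out, listed genes called on another probe set, and Otud7b were chosen after their values were seen, as was the rule without 1 experiment or treatment. Alternatives were pseudocounts of 1 and 64, quantile normalisation, a fit with no filter, one with a filter at the 75th percentile, the block, other minimum levels, each experiment left out, and leaving out both LPS arrays with raised dim signals at 20 min, or either.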

Additional observations from a re-analysis of the deposited data

Results flagged for a closer look

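In Otud7b the change from 10 to 20 min was negative in 3 of 3 experiments with LPS (mean -0.35) and positive in 3 of 3 with LPS plus IL-10 (mean 0.43), a difference of 0.78 on the log2 scale. In Sgsh, a lysosomal sulfatase gene, it was positive in 3 of 3 with LPS (mean 0.17) and negative in 3 of 3 with LPS plus IL-10 (mean -0.19), a difference of -0.37. Both LPS means draw on the arrays with raised dim signals, which belong to experiments 2 and 3. Neither difference between treatments was tested. Both come from 98 members that were searched for opposite signs.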

How the results depend on the processing

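The members' median 30 minus 10 min difference ran from -0.41 to -0.35 over the alternatives; the rule fixes its sign, and that of each member, when arrays are left out. The IL-10 comparison at 20 min called no member under any alternative. Its median moved from -0.039 to -0.0806 without both LPS arrays with raised dim signals, and to -0.022 without experiment 2 or its LPS array alone and -0.024 without experiment 1. Membership depended on the rule: 36 of 98 members remained with a mean level of at least 7, 43 with at least 9, 77 after quantile normalisation, 97 without the LPS 20 min array of experiment 2, 96 without that of experiment 3 or both, and 33 to 44 when 1 experiment was left out (33 without experiment 1, 37 without experiment 3 and 44 without experiment 2). With the replicate block, members called lower at 30 min rose from 0 to 2 for LPS plus IL-10 (0 to 1 when 1 experiment was left out) and from 0 to 11 for the average (1 to 7). The average gave 1 with quantile normalisation and 1 with the filter at the 75th percentile. The block also raised the number of probe sets called higher on average from 15 to 95, and gave all calls of listed genes; it changed no call of a member at 20 min or with LPS alone. The blocked fits without 1 experiment were added after seeing the data. The members' mean signals of 250 to 6627, most below 1000, limit how small a change can be seen.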
